A study of Mus musculus with 10 samples.

Results

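Antigen presentation by MHC class I is represented here by 10 genes: the heavy chains H2-K1 and H2-D1, their light chain B2m, the peptide loading genes Tap1, Tap2 and Tapbp, the immunoproteasome subunits Psmb8, Psmb9 and Psmb10, and the transcriptional activator Nlrc5. They were taken by gene name from a table of raw RNA-seq read counts. All 10 were found among its 46603 genes, and all 10 passed the filter on low counts, which kept 13595 genes. The libraries came from macrophages of 4T1 tumours. 4T1 cells are a mammary carcinoma line of BALB/c mice that forms tumours when grafted. Viable cells positive for CD11B and F4/80, a surface pair carried by mouse macrophages, were sorted after enzymatic digestion into PoEMs, which were PDPN+, and non-PoEMs, which were PDPN-. PDPN is podoplanin, a membrane glycoprotein, and PoEMs is the submitters' name for podoplanin-expressing macrophages. Each fraction had 5 libraries, 1 from each of tumours 1, 2, 4, 5 and 6, so that each PoEMs library had a non-PoEMs library of the same tumour. The labels name no genotype, treatment, strain or age of the mice, nor whether tumours of different numbers grew in different mice, and p-values therefore measure only the spread between these libraries. The study is about lymphatic vessel growth and matrix remodelling by PDPN+ macrophages of tumours, and the comparison described here asks whether the class I presentation genes differed between the sorted fractions.

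Class I molecules show peptides of the cell's own proteins to CD8+ T cells. The proteasome cuts proteins into peptides, the TAP transporter carries these into the endoplasmic reticulum, tapasin holds the transporter beside an empty class I molecule, and a heavy chain that has bound a peptide and beta-2-microglobulin travels to the surface. Interferon-gamma raises most of these genes together: it swaps the catalytic subunits of the proteasome for those of the immunoproteasome and induces NLRC5, which acts at class I promoters. Macrophages carry class I like almost all nucleated cells, and can also present peptides taken up from other cells.

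Promoter sequence is shown for 4 members because class I genes share control elements just upstream of their starts, and because these genes varied together across the tumours. RefSeq windows of 300 bases on GRCm38.p6, the C57BL/6J reference, ran from 250 bases before to 50 after a start and were held for 8 of the 10 members, all but Tap2 and Nlrc5. Capitals mark matches, on either strand, to the letters CCAAT for the CCAAT box, GAANNGAAA for an interferon-stimulated element, TTCNNNGAA for a gamma-activated site, TGACG for the core of a cyclic AMP response element and GGGATTCCC for a kappa B element. These letters were chosen after the windows had been seen. Each sequence runs 5′ to 3′ on the strand of its gene: H2-K1 at chr17:34000298-34000597, minus strand; H2-D1 at chr17:35262844-35263143, plus strand; B2m at chr2:122147437-122147736, plus strand; and Tap1 at chr17:34187306-34187605, plus strand.
H2-K1: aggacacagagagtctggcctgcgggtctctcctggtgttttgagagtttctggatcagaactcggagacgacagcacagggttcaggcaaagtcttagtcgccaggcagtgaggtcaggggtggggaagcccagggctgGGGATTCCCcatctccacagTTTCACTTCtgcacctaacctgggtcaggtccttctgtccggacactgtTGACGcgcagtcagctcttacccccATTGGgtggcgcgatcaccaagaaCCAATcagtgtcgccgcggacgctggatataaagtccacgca
H2-D1: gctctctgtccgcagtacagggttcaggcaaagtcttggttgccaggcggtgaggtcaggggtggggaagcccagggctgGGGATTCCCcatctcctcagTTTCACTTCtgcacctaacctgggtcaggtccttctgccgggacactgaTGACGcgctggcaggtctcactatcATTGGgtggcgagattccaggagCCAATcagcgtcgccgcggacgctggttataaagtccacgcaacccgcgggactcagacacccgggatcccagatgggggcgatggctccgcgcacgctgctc
B2m: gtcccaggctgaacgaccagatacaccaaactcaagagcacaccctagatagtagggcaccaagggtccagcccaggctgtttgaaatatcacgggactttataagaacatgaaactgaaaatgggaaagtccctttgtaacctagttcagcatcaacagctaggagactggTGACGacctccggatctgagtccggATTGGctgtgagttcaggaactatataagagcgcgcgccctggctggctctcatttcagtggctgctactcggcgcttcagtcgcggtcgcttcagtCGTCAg
Tap1: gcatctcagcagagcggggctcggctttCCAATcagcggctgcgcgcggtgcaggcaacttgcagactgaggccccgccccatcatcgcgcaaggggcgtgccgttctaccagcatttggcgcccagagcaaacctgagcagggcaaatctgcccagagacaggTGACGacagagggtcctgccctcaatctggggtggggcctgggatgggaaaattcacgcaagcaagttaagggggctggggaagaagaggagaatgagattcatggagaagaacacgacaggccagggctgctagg

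The H2-K1 and H2-D1 windows were near copies of each other, with 206 identical bases in 228 aligned columns (90.4%). Each held the kappa B letters once, GAANNGAAA once, TGACG once and CCAAT at 2 places. The kappa B letters were in 0.353% of all 32851 RefSeq windows, 116 windows of 112 genes, among them also the class I genes H2-Q6 and H2-Q7. The commoner letters were CCAAT in 37.4% of windows, GAANNGAAA in 7.52%, TTCNNNGAA in 8.30% and TGACG in 20.8%. The B2m window held CCAAT once and TGACG at 2 places, and the Tap1 window held each of them once. Tap1 and Psmb9 lie head to head on opposite strands, and 275 bases of their windows were the same stretch of genome. Of the others, the Tapbp window held CCAAT at 2 places, that of Psmb8 held TTCNNNGAA once, and that of Psmb10 held none of the 5. These matches are letters in a window and not binding sites.

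The libraries held 12597829 to 15406722 counts, so that 1 count was worth 0.0649 to 0.0794 CPM of the unadjusted library total. Levels of genes are given as CPM of the TMM-adjusted total. Members were deeply covered, with 1250 to 46525 counts per gene and library. The sort was visible in Pdpn, at 215 ± 22.9 CPM in PoEMs and 19.3 ± 7.33 CPM in non-PoEMs (SD, n = 5 each; edgeR adjusted p = 1.96e-05). The macrophage markers Itgam (CD11B), Adgre1 (F4/80), Csf1r and Cd68 were abundant in both fractions, at 1384, 526, 2405 and 756 CPM in PoEMs and 1185, 573, 2849 and 647 CPM in non-PoEMs. Their levels were not all equal. Without regard to tumour, Itgam was called higher in PoEMs (log2 change 0.22, edgeR adjusted p = 0.0347). Csf1r was called lower (log2 change -0.24, edgeR adjusted p = 0.0493), and Adgre1 and Cd68 were not called. Within tumours, Adgre1 was lower in PoEMs of 4 and higher in tumour 6 alone (log2 difference 0.43), and Cd68 was higher in PoEMs of all 5. Markers of other cells moved with the sort. The summed level of 8 fibroblast markers, all 8 called higher, ran from 275 to 447 CPM in PoEMs, against 19.4 to 36.1 CPM in non-PoEMs. That of 7 monocyte markers, 2 of them called lower, ran from 519.9 to 784 CPM in PoEMs, against 1007 to 1562 CPM in non-PoEMs. Eosinophil markers, with all 4 tested members of 6 called lower, summed to between 4.30 and 12.6 CPM in PoEMs and between 57.2 and 141 CPM in non-PoEMs. Neutrophil markers, with 5 of 6 tested members called lower and 1 called higher, summed to between 117 and 144 CPM in PoEMs and between 213 and 289 CPM in non-PoEMs. Class I genes are expressed in all these cells, and the part of such cells in the differences described here was not tested. In bulk libraries, fewer cells of a type and less RNA per cell cannot be told apart.

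None of the 10 class I members was called higher or lower in PoEMs when the fractions were compared without regard to tumour. The threshold was a Benjamini-Hochberg adjusted p under 0.05 in edgeR's quasi-likelihood test over all 13595 genes, which called 13.6% of them. No member reached an unadjusted p under 0.05 either, against 28.3% of all tested genes, and DESeq2 without the tumour called 0 of the 10, against 14.2% of its genes. All 10 fitted changes were nevertheless below 0, as were 48.5% of all tested genes. They ran from a log2 change of -0.03 for B2m to -0.19 for Nlrc5, with a median of -0.10 over the 10 members and 0.01 over all tested genes. The range of levels in PoEMs overlapped that in non-PoEMs for each of the 10, as for most tested genes. Only 5.38% of all tested genes had groups apart with PoEMs higher, and 5.13% with PoEMs lower. Taken over the members, the 95% intervals of the log2 change in edgeR without the tumour lay between -0.60 and 0.23. In that fit, both a small increase and a small decrease lay within the interval of every member. With the tumour as a block, a fit given below, the upper bounds of Tap2, Tapbp, Psmb10 and Nlrc5 were -0.06, -0.03, -0.004 and -0.09. Those of the other members lay above 0.

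**Figure D1:**
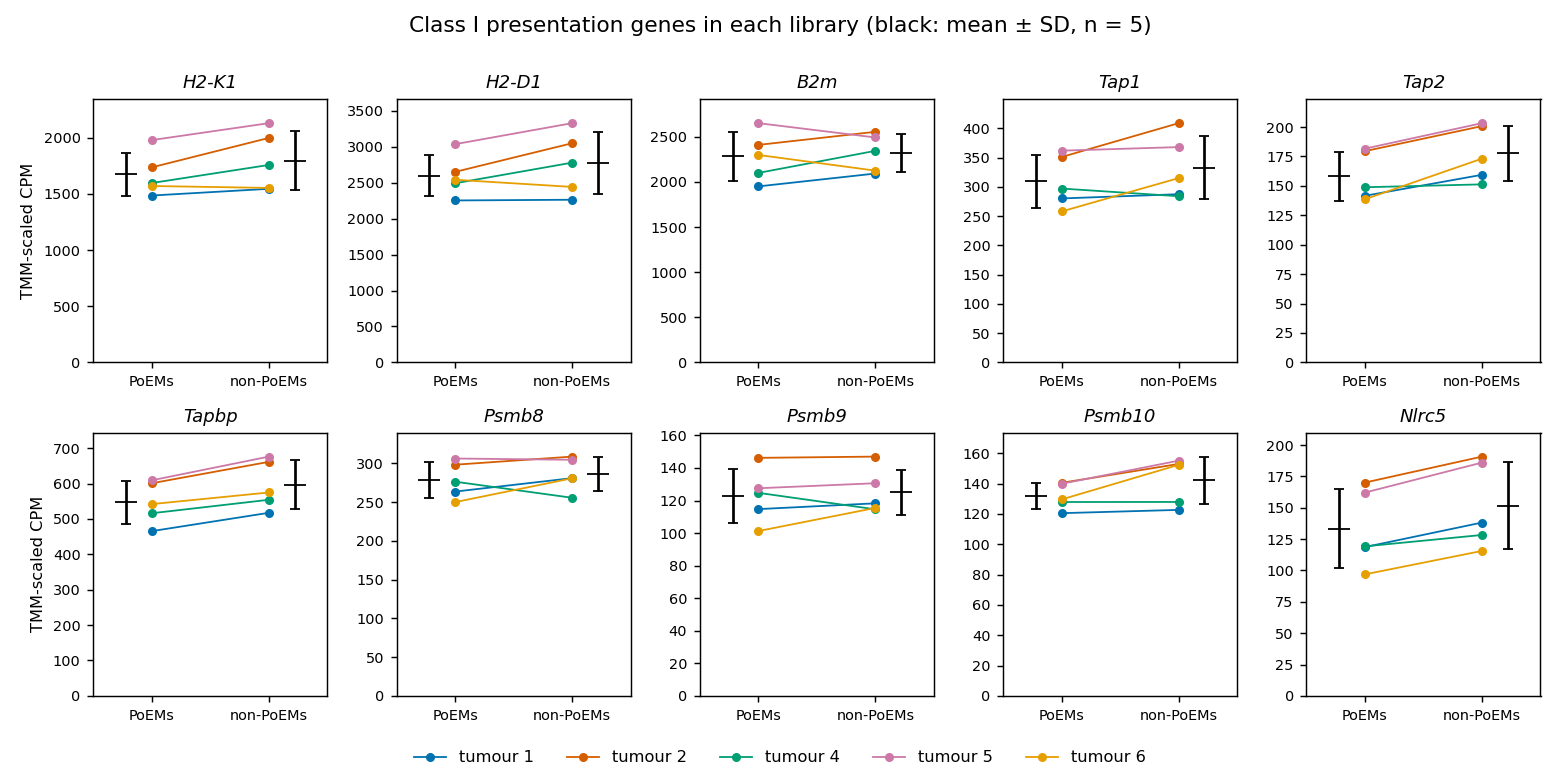
TMM-scaled CPM (vertical axes, from 0) of the 10 members in each library, with PoEMs on the left and non-PoEMs on the right of each panel, coloured points joined within a tumour and black bars giving the mean ± SD of 5 libraries. The groups overlap in all 10 panels, as for most tested genes. The lines of tumours 2 and 5 lie highest, and for Tap2, Tapbp, Psmb10 and Nlrc5 the PoEMs point lies at or below its partner in each of the 5 tumours.

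When each PoEMs library was set against the non-PoEMs library of its own tumour, 3 members fell: Nlrc5, Tap2 and Tapbp. The edgeR fit with the tumour as a block called 14.3% of all tested genes lower and 13.8% higher, against 3 of 10 members lower and 0 higher. DESeq2 with the same block called 8.70% of its genes lower, and of the members it called Nlrc5 alone. Of the 10 members, 4 were lower in the PoEMs library of all 5 tumours (Tap2, Tapbp, Psmb10 and Nlrc5), which held for 17.6% of all tested genes. A further 4 members were lower in 4 of the 5 tumours (H2-K1, H2-D1, Tap1 and Psmb9), so that 8 of 10 were lower in at least 4, against 32.2% of all tested genes. B2m and Psmb8 were lower in 3. In all, 42 of the 50 pairs of a tumour and a member were lower in PoEMs. These pairs are not independent, since the members varied together in the same 5 tumours. The share of such pairs over all tested genes was not computed.

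**Figure D2:**
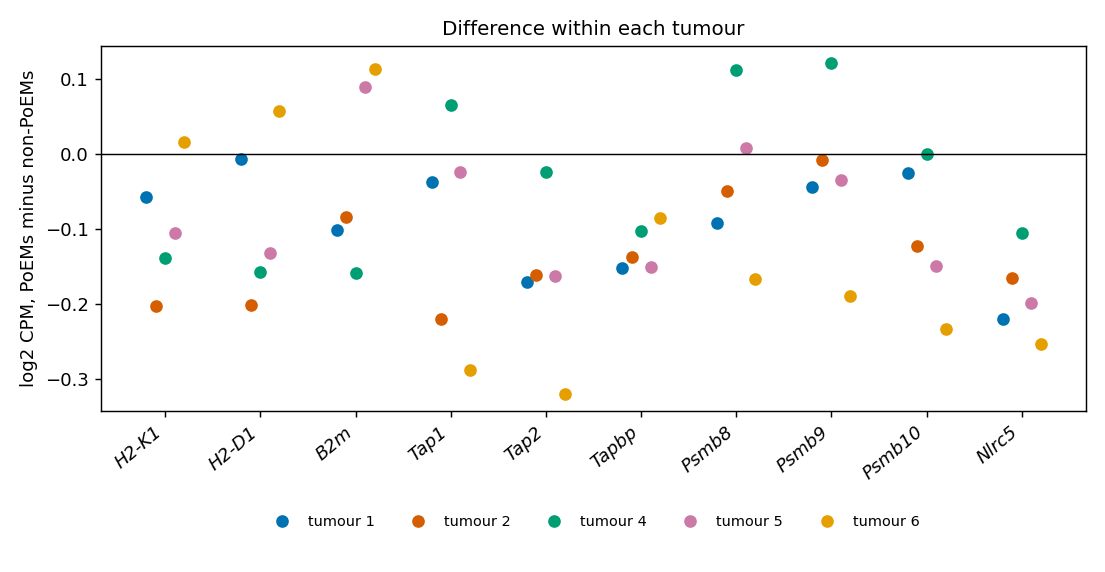
Difference in log2 CPM within each tumour, PoEMs minus non-PoEMs (vertical axis), for the 10 members, with 1 point for each of 5 tumours. Points of Tap2, Tapbp and Nlrc5 all lie below 0, those of Psmb10 lie at or below 0, and the points above 0 belong to H2-K1, H2-D1, B2m, Tap1, Psmb8 and Psmb9.

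The heavy chains and their light chain were among the abundant transcripts of both fractions and did not pass the test in either fit. H2-K1 (ENSMUSG00000061232) encodes the classical heavy chain of the K locus and lies on chromosome 17 of GRCm38 at 33996017 to 34000347 (minus strand). It measured 1486, 1737, 1598, 1979.9 and 1571 CPM in PoEMs of tumours 1, 2, 4, 5 and 6, against 1546, 1999, 1759, 2131 and 1554 CPM in non-PoEMs of the same tumours. The means were 1674 ± 193 CPM in PoEMs and 1798 ± 263 CPM in non-PoEMs (SD, n = 5 each), a log2 change of -0.10 ± 0.11 (SE; edgeR adjusted p = 0.585, and 0.160 with the block). The PoEMs library was the lower of the pair in every tumour except tumour 6. H2-D1 (ENSMUSG00000073411), the heavy chain of the D locus, lies on chromosome 17 at 35262730 to 35267499 (plus strand). Its level was 2253, 2650.4, 2492, 3036 and 2541 CPM in PoEMs and 2263, 3049, 2779, 3328 and 2442 CPM in non-PoEMs, in the same tumour order. The log2 change was -0.10 ± 0.11 (SE, n = 5 each; edgeR adjusted p = 0.625, and 0.241 with the block). As with H2-K1, tumour 6 alone had the higher level in PoEMs. B2m (ENSMUSG00000060802) encodes beta-2-microglobulin, the light chain common to class I molecules, and lies away from the MHC on chromosome 2 at 122147686 to 122153083 (plus strand). Its level was 1950.0, 2409.7, 2099, 2651 and 2298 CPM in PoEMs and 2093, 2555, 2344, 2492 and 2124 CPM in non-PoEMs. The fitted change was -0.03 ± 0.09 (SE, log2; edgeR adjusted p = 0.896), with a 95% interval from -0.23 to 0.18. B2m was lower in PoEMs of tumours 1, 2 and 4 and higher in PoEMs of tumours 5 and 6. Heavy chain genes resemble one another: 9.63% of the 50-base stretches of H2-K1 transcripts and 12.8% of those of H2-D1 also occur in transcripts of other genes, and the sources used here do not say how reads with several matches were counted. The effect of BALB/c alleles on counts against a reference of another strain was not tested.

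Of the peptide loading genes, Tap2 and Tapbp fell in PoEMs in the fit that pairs libraries by tumour, and Tap1 did not pass it. Tap1 (ENSMUSG00000037321, chromosome 17, 34187553 to 34197225, plus strand) encodes one chain of the TAP transporter. It measured 280.2, 351, 297, 362 and 258 CPM in PoEMs of tumours 1, 2, 4, 5 and 6, against 287, 409, 284, 368 and 315 CPM in non-PoEMs. Its log2 change was -0.10 ± 0.12 (SE; edgeR adjusted p = 0.625, and 0.201 with the block), and tumour 4 had the higher level in PoEMs. Tap2 (ENSMUSG00000024339, chromosome 17, 34203527 to 34216321, plus strand) encodes its other chain. Its level was 142, 179.5, 149, 182 and 139 CPM in PoEMs and 159, 201, 151, 203 and 173 CPM in non-PoEMs. The paired difference was -0.17 ± 0.05 on the log2 scale, a level 10.97% lower in PoEMs (SE; edgeR with the block, adjusted p = 0.0199, against 0.325 without the block). It was lower in 5 of 5 tumours, least in tumour 4 at -0.02 and most in tumour 6 at -0.32. This call did not hold without tumour 1, 2 or 6, where the adjusted p rose to 0.0670 at most, nor with DESeq2 and the block (adjusted p = 0.0515). Tapbp (ENSMUSG00000024308, chromosome 17, 33915899 to 33929292, plus strand) encodes tapasin. Its level was 466, 601, 516, 609 and 542 CPM in PoEMs and 517, 661, 554, 676 and 575 CPM in non-PoEMs. The paired difference was -0.13 ± 0.04 on the log2 scale, 8.34% lower in PoEMs (SE; edgeR with the block, adjusted p = 0.0456, against 0.423 without the block). Its 5 within-tumour differences kept to a narrow range, -0.15 to -0.08, and all lay below 0. The call was lost when tumour 1, 2, 4 or 5 was left out, with an adjusted p of 0.141 at most, and with DESeq2 and the block (adjusted p = 0.0701). Other genes share 50-base stretches with Tap1 (3.33% of its stretches), Tap2 (11.6%) and Tapbp (23.2%), and exons of Tapbp overlap 1053 bases of Zbtb22 and the predicted gene Gm19412. The sources used here do not say whether counting used strand, so reads of such overlaps cannot be assigned.

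**Figure D3:**
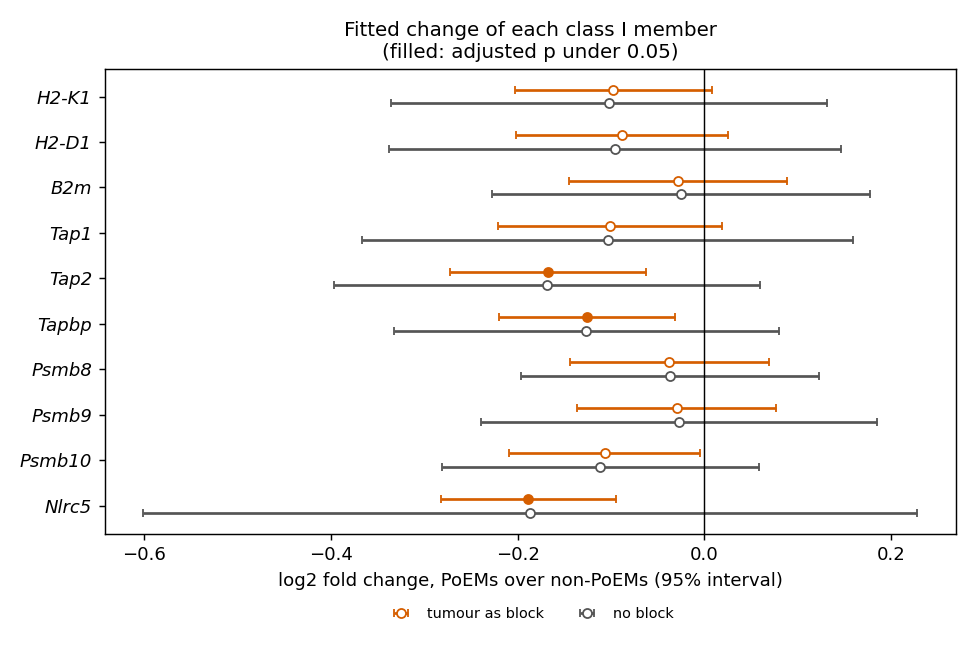
Fitted log2 change of each member, PoEMs over non-PoEMs (horizontal axis), with 95% intervals from edgeR, the fit with the tumour as a block above the fit without it and filled points for an adjusted p under 0.05. The estimates of both fits nearly coincide, the intervals with the block are narrower, and only Tap2, Tapbp and Nlrc5 with the block are filled.

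None of the 3 immunoproteasome subunits was called in either fit. Psmb8 (ENSMUSG00000024338, chromosome 17, 34197721 to 34201454, plus strand) encodes beta5i. It measured 263, 298, 276, 306 and 249.8 CPM in PoEMs, against 281, 309, 255, 304 and 281 CPM in non-PoEMs of the same tumours. The log2 change was -0.04 ± 0.07 (SE; edgeR adjusted p = 0.789), with differences of both signs among the tumours. Psmb9 (ENSMUSG00000096727, chromosome 17, 34181987 to 34187764, minus strand) encodes beta1i. Its level was 115, 146, 125, 128 and 101 CPM in PoEMs and 118, 147, 115, 131 and 115 CPM in non-PoEMs. Its log2 change was -0.03 ± 0.10 (SE; edgeR adjusted p = 0.895), and PoEMs were the higher fraction in tumour 4 alone. Psmb10 (ENSMUSG00000031897, chromosome 8, 105935735 to 105938444, minus strand) encodes beta2i. Its level was 121, 141, 128, 139.9 and 129.6 CPM in PoEMs and 123, 153, 128, 155 and 152 CPM in non-PoEMs. The log2 change was -0.11 ± 0.08 (SE; edgeR adjusted p = 0.388). With the block its unadjusted p was 0.0422 and its adjusted p 0.113, so it was not called although it was lower in 5 of 5 tumours. In tumour 4 that difference was only -0.0005 on the log2 scale. Psmb9 and Tap1 exons overlap by 212 bases on opposite strands.

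Each immunoproteasome subunit takes the place of a constitutive one. Psmb6, which encodes beta1 and is the partner of Psmb9, rose in PoEMs. It measured 108, 102, 104, 99.97 and 106 CPM in PoEMs, against 77.9, 77.7, 78.1, 77.6 and 92.8 CPM in non-PoEMs. The groups did not overlap, which held in this direction for 5.38% of all tested genes. The log2 change was 0.36 ± 0.06 (SE; edgeR adjusted p = 0.0019), and it was called under every alternative run. Psmb5, encoding beta5, averaged 14.8 ± 1.19 CPM in PoEMs and 12.5 ± 1.46 CPM in non-PoEMs (SD, n = 5 each), a log2 change of 0.24 ± 0.10 (SE; edgeR adjusted p = 0.122, and 0.0417 with the block). Other genes share 54.1% of the 50-base stretches of Psmb5, among them its pseudogene Psmb5-ps, so its level is uncertain. It was also called without the block when the non-PoEMs library of tumour 6 was left out, and its call with the block was lost without tumour 1, 2, 4 or 5. Psmb7, encoding beta2, averaged 74.7 ± 1.17 CPM in PoEMs and 70.1 ± 3.19 CPM in non-PoEMs, and did not pass the test (log2 change 0.09 ± 0.05, SE; edgeR adjusted p = 0.244).

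The ratio of immunoproteasome to constitutive reads within a library, which does not depend on scaling, was lower in PoEMs of 5 of 5 tumours for each of the 3 pairs, but no ratio passed the unpaired exact test after adjustment. Psmb9 to Psmb6 stood at 1.06, 1.44, 1.20, 1.28 and 0.952 in PoEMs, against 1.52, 1.89, 1.47, 1.68 and 1.24 in non-PoEMs. The difference in log2 ratio was -0.40, 0.759-fold that of non-PoEMs (two-sided exact permutation p = 0.0317, adjusted over 3 ratios 0.0873). Every tumour had the lower ratio in PoEMs, with log2 differences from -0.51 to -0.29, while the groups overlapped because tumours differed. The unpaired test counts that spread between tumours, so an uncalled ratio does not show that the fractions had equal ratios. Psmb8 to Psmb5 was 16.1, 22.6, 18.3, 21.5 and 16.3 in PoEMs and 21.3, 27.5, 22.7, 24.3 and 19.0 in non-PoEMs (log2 difference -0.28, exact permutation p = 0.0794, adjusted 0.0873). Psmb10 to Psmb7 was 1.62, 1.89, 1.73, 1.88 and 1.69 in PoEMs and 1.64, 2.19, 1.92, 2.29 and 2.12 in non-PoEMs (log2 difference -0.20, exact permutation p = 0.0873, adjusted 0.0873). Reads were not divided by transcript length, and the level of Psmb5 is uncertain, so the sizes of the ratios cannot be compared between pairs. Over the 5 within-tumour differences the exact sign-flip p was 0.0625 for each ratio, the smallest that this test allows with 5 pairs, so it could not reach the threshold whatever the size of the differences. Each ratio had 12 alternatives. Psmb9 to Psmb6 stayed uncalled in 11 and passed only without the non-PoEMs library of tumour 6 (adjusted exact p = 0.0476). Psmb10 to Psmb7 stayed uncalled in 11 and passed only without the non-PoEMs library of tumour 1 (adjusted exact p = 0.0238). Psmb8 to Psmb5 stayed uncalled in all 12. The highest adjusted exact p was 0.167 for Psmb9 to Psmb6 and 0.183 for each of the others. A ratio shows unequal levels of its parts: in these pairs, Psmb6 was the gene that passed the gene-wise test in both fits.

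**Figure D4:**
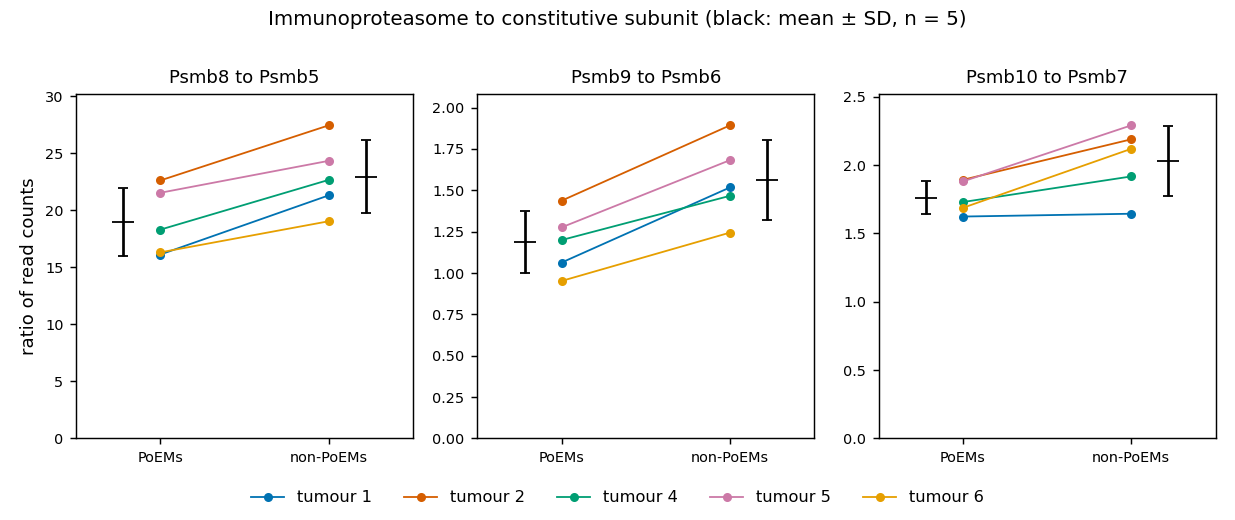
Ratio of read counts of each immunoproteasome subunit to the constitutive subunit it replaces (vertical axes, from 0), with PoEMs left of non-PoEMs, points joined within a tumour and black bars for the mean ± SD of 5 libraries. All 15 lines are higher at their non-PoEMs end, and the groups overlap in each panel.

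Nlrc5 had the lowest adjusted p of the 10 members when libraries were paired by tumour. The gene (ENSMUSG00000074151, chromosome 8, 94434356 to 94527272, plus strand) encodes the class I transactivator, which is recruited to class I promoters by factors bound there. It measured 119, 170.1, 119, 162 and 96.9 CPM in PoEMs of tumours 1, 2, 4, 5 and 6, against 138, 191, 128, 186 and 116 CPM in non-PoEMs. Within tumours the log2 differences were -0.22, -0.17, -0.11, -0.20 and -0.25. Both fractions were high in tumours 2 and 5 and low in tumour 6, so the groups overlapped widely while each PoEMs library lay below its partner. The paired difference was -0.19 ± 0.04 on the log2 scale, a level 12.2% lower in PoEMs, with a 95% interval from -0.28 to -0.09 (edgeR with the block, adjusted p = 0.00543). Without the block the estimate was the same to 2 decimals with an SE of 0.19, and the gene was not called (adjusted p = 0.568). With the block, Nlrc5 was called again without any 1 of the 5 tumours (edgeR adjusted p between 0.00659 and 0.0230) and with DESeq2 (adjusted p = 0.0169). Little of its transcript sequence is shared: 0.339% of its 50-base stretches occur in other genes.

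Levels of the class I genes varied between tumours. Averaged over both fractions, tumours 2 and 5 were the highest pair for all 10 members: tumour 5 led for 7 of them, and tumour 2 for Tap1, Psmb9 and Nlrc5. The range over tumours ran from 0.21 on the log2 scale for Psmb8 to 0.77 for Nlrc5. It exceeded the fitted difference between fractions for each of the 10. A range between the extremes of 5 tumour means is not a like measure to a difference of 2 group means. How many of all tested genes had such a range, or the same highest pair of tumours, was not counted. Standard errors without the block were 1.49 to 4.28 times those with it. Across the 10 libraries, which share tumours, log2 CPM of H2-K1 followed that of H2-D1 most closely among members (Pearson r = 0.978) and that of Psmb9 least (r = 0.623). Among tested genes outside the members, those most like H2-K1 were the class I genes H2-Q5 (r = 0.969) and H2-Q2 (r = 0.965), followed by Ankrd12 (r = 0.960). Those most like Psmb9 were Tgtp2 (r = 0.973) and Gbp4 (r = 0.943), which encode interferon-inducible GTPases, and Psme2b (r = 0.937). Genes whose levels followed Nlrc5 closely included Enpp5 (r = 0.971) and Gtpbp2 (r = 0.953). These r values describe 10 libraries that are paired by tumour, and carry no test.

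Relative to transcript length, B2m was the most abundant member and Nlrc5 the scarcest in both fractions. CPM per kilobase of the principal GENCODE M21 transcript averaged 2653 ± 316 in PoEMs and 2699 ± 243 in non-PoEMs for B2m (SD, n = 5 each). The heavy chains followed, H2-D1 with 1234 ± 136 in PoEMs and 1319 ± 207 in non-PoEMs, and H2-K1 with 1034 ± 119 in PoEMs and 1110 ± 162 in non-PoEMs. Tapbp came next with 189 ± 20.7 in PoEMs and 206 ± 23.8 in non-PoEMs, then Psmb8 with 171 ± 14.4 in PoEMs and 176 ± 13.2 in non-PoEMs. The heavy chains thus stood several-fold above the peptide loading and immunoproteasome genes among the members. Tap1 (105 ± 15.3 in PoEMs, 113 ± 18.4 in non-PoEMs), Psmb10 (100.4 ± 6.49 in PoEMs, 108 ± 11.9 in non-PoEMs) and Psmb9 (90.9 ± 12.3 in PoEMs, 92.6 ± 10.2 in non-PoEMs) lay close together. Tap2, with 45.9 ± 6.08 in PoEMs and 51.6 ± 6.88 in non-PoEMs, was less abundant than its partner Tap1. Nlrc5 was lowest with 17.6 ± 4.13 in PoEMs and 20.03 ± 4.54 in non-PoEMs. The order was the same in both fractions, and neighbours whose libraries overlapped were H2-D1 and H2-K1, Tapbp and Psmb8, Tap1 and Psmb10, and Psmb10 and Psmb9. With the length of all exons in place of the principal transcript, the order of Tap1 and Psmb10 and that of Psmb9 and Tap2 turned round.

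Further genes of the pathway were read in 7 lists of 66 genes, of which 65 were in the table and 63 were tested. Without the block 3 of the 63 were higher and 3 lower in PoEMs (edgeR), against 6.83% higher and 6.77% lower of all tested genes. With the block 8 were higher and 16 lower, against 13.8% higher and 14.3% lower of all tested genes. The 16 lower genes came from the list of other heavy chains (7), which includes pseudogenes, and from the regulators (9). The higher ones were 2 heavy chain-like genes, 2 constitutive subunits, 2 peptidases, Calr and Psma6. The count without the block rests on single libraries: without PoEMs of tumour 4, or without non-PoEMs of tumour 2, 1 gene was lower and 2 were higher. H2-T3 and H2-M2 were below the filter, H2-T3 with 8 counts in all.

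Among 16 tested genes in the list of heavy chains outside the members, Mr1 was called without the block. Mr1 encodes a class I-like chain that presents vitamin B metabolites to MAIT cells, and it averaged 26.2 ± 2.34 CPM in PoEMs and 17.9 ± 1.68 CPM in non-PoEMs (SD, n = 5 each). It rose by a log2 change of 0.55 ± 0.09 (SE; edgeR adjusted p = 0.00117), without overlap between the groups and under every alternative run. With the block Cd1d1, a lipid-presenting chain, was also higher, and H2-K2, H2-T10, H2-T22, H2-T23, H2-T24, H2-M3 and Hfe were lower, while the list's median was -0.15 without the block. H2-T24 had the largest paired decrease of these, and H2-T23 encodes Qa-1, a ligand of the NKG2A receptor; both were picked after their values were seen. H2-T24 measured 34.2, 72.3, 57.4, 68.7 and 58.4 CPM in PoEMs, against 45.8, 117, 86.5, 107 and 69.8 CPM in non-PoEMs. Its paired difference was -0.53 ± 0.06 on the log2 scale (SE; edgeR with the block, adjusted p = 3.22e-05, against 0.222 without). H2-T23 averaged 291 ± 50.3 CPM in PoEMs and 353 ± 80.9 CPM in non-PoEMs (edgeR adjusted p = 0.00195 with the block and 0.297 without). The H2 genes are close relatives, and reads may be shared among them. Other genes share 50.4% of the 50-base stretches of H2-T10 and 53.5% of those of H2-T22. H2-K2 is annotated as a transcribed pseudogene and H2-T10 as a polymorphic pseudogene.

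Peptide loading and trimming outside the members gave no call without the block among 6 genes. Calr, encoding the chaperone calreticulin, had a log2 change of 0.15 (edgeR adjusted p = 0.219, and 0.0234 with the block), and Pdia3, encoding the disulfide isomerase ERp57, one of 0.11 (adjusted p = 0.338, and 0.0853 with the block). Nor was any of 12 shared subunits and assembly factors of the 20S core or of 3 proteasome activators called without the block. Their medians were 0.09 and 0.03 on the log2 scale. The 20S subunit gene Psma6 came nearest, at 0.18 ± 0.06 (SE; edgeR adjusted p = 0.0685, and 0.0104 with the block), and was called without the block when the non-PoEMs library of tumour 6 was left out. With the block, the call of Psma6 was lost without tumour 5, and that of Calr without tumour 2, 4 or 5. Psmb2 stood at 0.11 (adjusted p = 0.206). The activator genes Psme1 and Psme3 stood at -0.09 and 0.04 (edgeR adjusted p = 0.434 and 0.672). Of 5 tested cytosolic peptidases, Thop1, encoding thimet oligopeptidase, was higher, at 39.6 ± 4.73 CPM in PoEMs and 30.6 ± 3.92 CPM in non-PoEMs (log2 change 0.38 ± 0.10, SE; edgeR adjusted p = 0.0247, and 0.00166 with the block). Its call without the block was lost without PoEMs of tumour 4 or without non-PoEMs of tumour 2 or 5, with an adjusted p of 0.0688 at most.

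Of 18 regulators, 3 fell in PoEMs without the block, Ifngr1, Rfx5 and Irf9, and none rose. Ifngr1 encodes the ligand-binding chain of the interferon-gamma receptor. It measured 177, 172, 156, 157 and 171 CPM in PoEMs, against 251, 266, 259, 251 and 232 CPM in non-PoEMs. All PoEMs libraries lay below all non-PoEMs libraries, as for 5.13% of all tested genes. The log2 change was -0.60 ± 0.06 (SE; edgeR adjusted p = 4.88e-05), and the gene was called under every alternative run. Rfx5 encodes a DNA-binding subunit of the RFX complex at MHC promoters and averaged 22.3 ± 2.67 CPM in PoEMs and 28.4 ± 2.82 CPM in non-PoEMs (log2 change -0.35 ± 0.09, SE; edgeR adjusted p = 0.0274, and 0.000739 with the block). Irf9, the DNA-binding part of the ISGF3 complex of type I interferon signalling, averaged 87.3 ± 3.87 CPM in PoEMs and 103 ± 9.35 CPM in non-PoEMs (log2 change -0.24 ± 0.07, SE; edgeR adjusted p = 0.0307, and 0.00142 with the block). Without the block, Rfx5 lost its call without PoEMs of tumour 1, 4, 5 or 6 or non-PoEMs of tumour 2, with an adjusted p of 0.0748 at most. Irf9 lost its call without PoEMs of tumour 1, 4 or 6 or non-PoEMs of tumour 2, 4 or 5, with an adjusted p of 0.0821 at most. With the block 9 of the 18 were lower, among them these 3 and Ifngr2, Jak1, Irf1, Irf2 and Creb1. The interferon regulatory factors Irf1 and Irf2 are given with values here after these were seen. Irf1 had a paired log2 difference of -0.21 ± 0.05 (SE; edgeR with the block, adjusted p = 0.00753, against 0.333 without), and Irf2 one of -0.24 (adjusted p = 0.000997, against 0.0728 without). Transcripts of interferon-gamma itself, Ifng, were nearly absent, with 0 counts in PoEMs and 5 counts in non-PoEMs over all libraries. Summed T cell markers ran from 12.3 to 25.1 CPM in PoEMs and from 21.0 to 58.8 CPM in non-PoEMs, with Cd4 called lower of 3 tested, and summed NK cell markers from 0.351 to 2.82 CPM in PoEMs and from 1.09 to 5.83 CPM in non-PoEMs, with none of 9 above the filter. The part of those cells in these values was not tested.

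**Figure D5:**
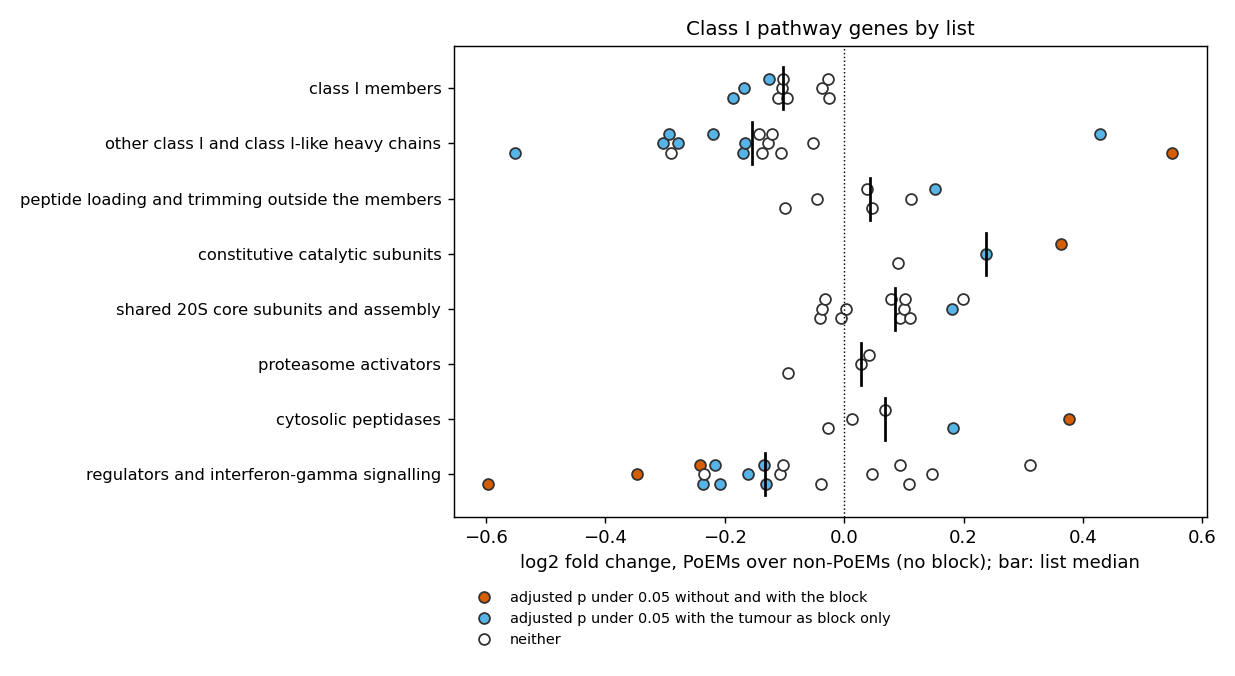
Log2 fold change without the block, PoEMs over non-PoEMs (horizontal axis), of the 10 members and of the 63 tested genes in 7 further lists, 1 point a gene, with colours for the calls and a black bar at each list's median. Members lie between -0.19 and -0.03, Ifngr1 lies lowest at -0.60 and Mr1 highest at 0.55, and the constitutive subunits lie above 0.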

How the data were processed

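Per the labels' protocols, cells were sorted from digested 4T1 tumours with SMART-Seq pre-amplification of their RNA. The authors deposited raw read counts per gene in 1 table. The submitters' processing notes name featureCounts 1.5.3, STAR 2.5.2b, Bowtie2 2.3.3.1 and cutadapt 1.15. The sources used here give neither the genome build and annotation nor the handling of strand and multi-mapping reads. Reads carry no molecular identifiers, so a count is not a number of molecules. SEs and p-values reflect the spread between libraries.

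The deposited counts were analysed in R 4.3.3 with edgeR 4.0.16: filterByExpr by group (minimum count 10, minimum total 15), TMM scaling and a robust quasi-likelihood fit with group as the only term. Of 46603 genes 13595 were tested and 22630 had no count. SEs of log2 changes were computed from the F statistic. The tumour number as a block, DESeq2 1.42.0, other scalings, no filter and leaving out libraries or tumours were alternatives. The labels give both fractions of a tumour the same number, so the numbers pair the libraries. Deviations from the group means of same-tumour libraries correlated at 0.499, 0.449, 0.237, 0.448 and 0.437 for tumours 1, 2, 4, 5 and 6. The common biological coefficient of variation was 13.3% without and 7.55% with the block. The fits were tested on simulated data. Without the block, 90 of 100 genes changed by 1 on the log2 scale were found, and 12 of 100 changed by 0.4. With the block these numbers were 91 and 48. Changes as small as those fitted for the members were not simulated. Libraries of the same fraction all differed by more than sampling noise (lowest chi-square per gene 7.08). Ratios of subunits used counts plus 0.5, exact permutation (scipy 1.17.1) and adjustment over 3 ratios.

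The members and lists were chosen with earlier results of these data known. Named were all members, from each list the called genes, at most 4, with the lowest p (or 2 uncalled), the 3 constitutive subunits, the sort and macrophage markers, and the 3 genes most like H2-K1, Psmb9 and Nlrc5. A result that falls under this rule is not reported here. Markers at 0 counts in all libraries were also to be named, and there were none. Marker lists for B and plasma cells (summed level 12.9 to 75.8 CPM in PoEMs, 40.5 to 239 CPM in non-PoEMs, 2 of 2 tested called lower), conventional dendritic cells (17.4 to 57.6 CPM in PoEMs, 23.5 to 75.7 CPM in non-PoEMs, 1 of 6 lower), epithelial and tumour cells (93.5 to 255 CPM in PoEMs, 77.9 to 208 CPM in non-PoEMs, 0 of 6) and macrophages (11530 to 12945 CPM in PoEMs, 11404 to 12763 CPM in non-PoEMs, 1 higher and 1 lower of 8) were read beside those in the text. Gene positions and lengths are from GENCODE M21 (GRCm38), for identification and for levels per kilobase.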

Additional observations from a re-analysis of the deposited data

Results flagged for a closer look

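Within the 5 libraries of a group, 1 library stood apart from the other 4 in 2 of 54 gene-and-group sets checked, where chance gives about 1 in 20. Psmb6 in non-PoEMs of tumour 6 had 92.8 CPM, against 77.6 to 78.1 CPM in the other non-PoEMs libraries and 99.97 to 108 CPM in PoEMs. Psmb7 in PoEMs of tumour 6 had 76.8 CPM, against 73.9 to 74.4 CPM in the other PoEMs libraries. Both are constitutive proteasome subunits, and no class I member was among the sets that stood out. The macrophage markers were not among the flagged sets, yet PoEMs of tumour 6 lay above the other PoEMs libraries for Adgre1 and Csf1r. Adgre1 had 650 CPM there, against 484 to 521 CPM in the others, and Csf1r had 2801 CPM, against 2258 to 2383 CPM.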

How the results depend on the processing

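Every member except B2m, Psmb8 and Psmb9 kept its direction in all alternatives, while some calls changed. Of 210 alternative values, 203 were below 0. These values come from refits of the same libraries and are not independent. The 7 above 0 were all uncalled. B2m ran from -0.084 without PoEMs tumour 5 to 0.027 without PoEMs tumour 1, Psmb8 from -0.082 without tumour 4 under the block to 0.00023 without PoEMs tumour 6, and Psmb9 from -0.096 without PoEMs tumour 2 to 0.037 without non-PoEMs tumour 2. Members called lower numbered 0 without the block, 3 with the replicate block, 1 with DESeq2 and the block, and 0 to 2 with a library or tumour left out. Wider genes called higher numbered 8 with the block and 2 to 8 with libraries or tumours left out. Wider genes called lower numbered 5 with DESeq2, 16 with the block, 10 with DESeq2 and the block, and 1 to 15 with libraries or tumours left out. Over all genes, 929 were higher and 920 lower without the block, 1880 and 1950 with it, and 1399 were lower with DESeq2 and the block. Leaving out libraries or tumours gave 617 to 1925 higher and 577 to 2016 lower. Beside the calls given in the report, the block changed that of Cd68 (edgeR adjusted p = 0.00582, against 0.109 without it) and of no other gene named with a test. With a library left out, the log2 ratio difference ran from -0.48 to -0.32 for Psmb9 to Psmb6 and from -0.27 to -0.15 for Psmb10 to Psmb7. The causes of these changes were not tested. The fitted difference of each member was smaller than the range of its tumour means, a spread that the fit with the block sets aside. In that fit, Nlrc5 kept its call without any 1 of the 5 tumours.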
